A study of Mus musculus with 8 samples.

Results

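The 8 genes described here belong to enzyme families that remove an amino group from a base or nucleoside, or encode RNA-binding proteins guiding Apobec1. They are Apobec3, Apobec1 and Apobec2 of the Apobec family, A1cf and Rbm47 as cofactors of Apobec1, Adar and Adarb1 of the adenosine deaminases that act on RNA, and Cda, the cytidine deaminase of nucleoside salvage. They were taken by gene symbol from the deposited table, in which all 8 were present once, 8 of 34745 genes. Liver RNA was sequenced from male mice of matched age, all of them given diethylnitrosamine (DEN), a liver carcinogen, 8 months earlier. The labels give each mouse 1 of 2 injected plasmids, pT3 vector or pT3 with mouse APOBEC3B, which the sample titles call mA3. From each of 4 mice, numbered vector 1 and 9 and mA3 1 and 2 in the titles, the libraries held a tumour and liver that the labels call relatively normal, termed adjacent liver here. Plasmid and tissue together made 4 groups, with 2 libraries in each. The sources used here do not give the strain, the age in weeks, the promoter of the plasmid or the cells that took it up. The series asks what APOBEC3B does in hepatocellular carcinoma, and Apobec3 is therefore the gene that the plasmid labels point to, with the reading of APOBEC3B as mouse Apobec3 made here.

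Of the Apobec family, Apobec3 and Apobec1 turn cytosine into uracil in single-stranded DNA or RNA. Mice carry a single Apobec3 gene, whose product restricts retroviruses, while Apobec1 edits a cytosine of the apolipoprotein B message in intestine and, in mice, also in liver, with A1cf or Rbm47 bound next to the site. Adar and Adarb1 turn adenosine into inosine in double-stranded RNA, and the longer Adar isoform is induced by interferon. Cda acts on free cytidine and deoxycytidine.

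Messages that are edited can be shown by the best known site of Apobec1, since its sequence is what A1cf and Rbm47 help to recognise. The 30 bases below lie in exon 26 of the longer Apob transcript of GENCODE vM21, on the plus strand at chr12:8008046-8008075 of GRCm38. The first capital is the cytosine that is edited, at position 8008054 in codon 2179 of 4505, and the later capitals are the start of the element that follows it after 4 bases, known as the mooring sequence.
Apob editing site: acgcgataCaattTGATCAGtatattaaag
Counts per gene hold no bases, so editing at this site was not analysed here. The Apob message itself was abundant, at 6832 and 2926 CPM (read counts scaled to library size with TMM factors) in vector adjacent 1 and 9, 1685 and 3382 CPM in vector tumour 1 and 9, 2629 and 4326 CPM in mA3 adjacent 1 and 2, and 4220 and 5357 CPM in mA3 tumour 1 and 2. The order of these libraries did not follow tissue or plasmid.

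A promoter window of Apobec3 is printed because Apobec3 had the largest log2 difference between plasmids among the 7 of these genes that were tested. RefSeq (GRCm38.p6) gave 13 promoter windows of 300 bases, 250 before and 50 after a start site, for the 8 genes. The window below is on the plus strand at chr15:79892158-79892457. Capitals mark a match, on the minus strand and 140 bases before the start, to GAAANNGAAA, the letters of the interferon-stimulated response element. Another Apobec3 window, at chr15:79894773-79895072, held no match and is not printed.
Apobec3 promoter: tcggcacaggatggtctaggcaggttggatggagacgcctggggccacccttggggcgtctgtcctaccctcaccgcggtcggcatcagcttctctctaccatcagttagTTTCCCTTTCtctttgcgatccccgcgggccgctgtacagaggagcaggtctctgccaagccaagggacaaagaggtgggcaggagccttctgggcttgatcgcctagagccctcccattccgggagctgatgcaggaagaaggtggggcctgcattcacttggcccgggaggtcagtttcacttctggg
These letters, searched on both strands, were in 1131 of 32851 mouse promoter windows of that length (3.44%) and in 1 of the 13 windows of these genes. A match describes the sequence and is not a bound site.

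Libraries held 12969929 to 22882531 counts, and 7 of the 8 genes passed the filter on low counts. On the first principal component, which took 50.7% of the variance, vector tumour 1 lay at -31.8, nearer to the adjacent libraries (-61.2 to -42.5) than to the other tumours (60.7 to 102). The summed level of 5 tumour and fetal liver markers likewise put vector tumour 1 between the adjacent libraries and the other tumours, with 15.9 to 27.5 CPM in adjacent liver, 46.0 CPM in vector tumour 1, and 344, 378 and 1136 CPM in vector tumour 9, mA3 tumour 1 and mA3 tumour 2. Hepatocyte markers were abundant in all libraries (8 genes summing to 39498 to 206120 CPM). The comparisons were tumour against adjacent liver (over both plasmids, in vector mice and in mA3 mice), mA3 against vector mice (in adjacent liver and in tumour), and the interaction, which is the tumour difference in mA3 mice minus that in vector mice. A gene was called, that is said to rise or fall, at an adjusted p under 0.05 in edgeR's quasi-likelihood test over 15009 genes. The labels tell the animals of a group apart only by the number in the title, so p-values measure the spread between these libraries. In bulk tissue, fewer cells of a type and less RNA per cell cannot be told apart.

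In none of the 6 comparisons was any of the 7 tested genes called, 0 of 42 tests. The share of all genes called was 4.64% for tumour against adjacent liver over both plasmids, 1.19% for that contrast in mA3 mice, and 0% in the other 4 comparisons. Where edgeR called 0 genes, an unadjusted p under 0.05 was found for 1397 genes in vector mice, 155 between plasmids in adjacent liver, 2127 between plasmids in tumour and 749 for the interaction. As shares of all genes these were 9.31%, 1.03%, 14.2% and 4.99%, with 22.4% over both plasmids and 20% in mA3 mice. DESeq2 called 230, 0, 508 and 12 genes there, and limma-voom 0 in each. Unadjusted p-values under 0.05 went to A1cf for tumour against adjacent liver over both plasmids and in mA3 mice, and to Apobec3 in mA3 mice, between plasmids in adjacent liver and for the interaction.

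**Figure D1:**
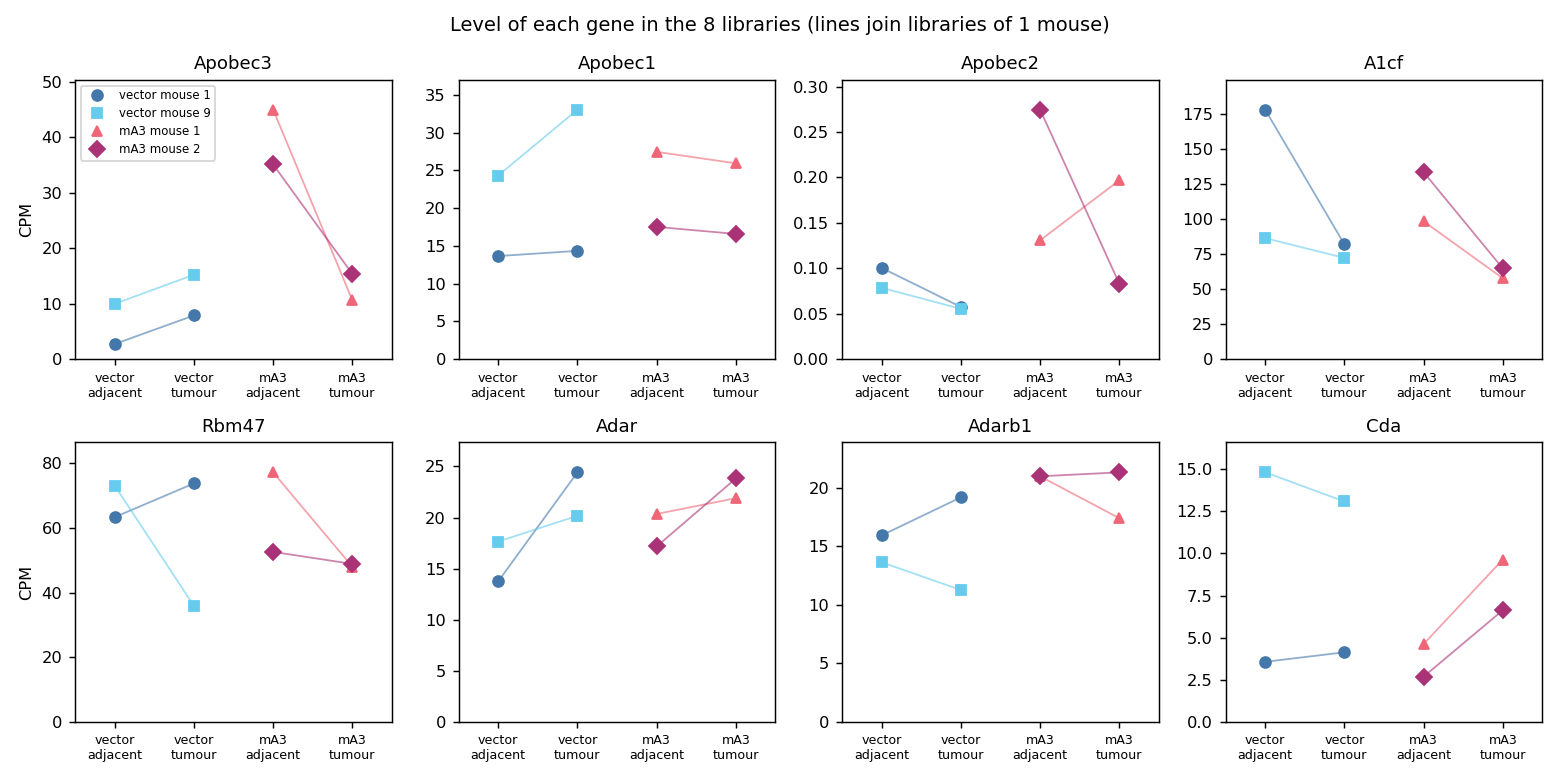
Level of each gene, in CPM on a linear axis that starts at 0, in the 8 libraries; each panel is 1 gene, each symbol 1 library, and lines join the adjacent and tumour library of 1 mouse. Apobec3 is high in the 2 mA3 adjacent libraries (45.0 and 35.1 CPM), and A1cf is lower in the tumour of each mouse than in its adjacent liver.

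Levels were compared between genes per kilobase of the transcript with the longest coding sequence, termed the longest coding transcript here. Counts are per gene, so this order depends on the length chosen. A1cf was the most abundant, at a median of 24.6 CPM per kb over the 8 libraries (range 16.9 to 52.2). Its lowest library was above the highest of Rbm47, the next gene, at a median of 11.1 CPM per kb (6.88 to 14.8). Apobec1 followed at 9.23 CPM per kb (6.02 to 14.6), Cda at 6.65 (3.16 to 17.5), Apobec3 at 6.60 (1.39 to 23.0), Adar at 3.45 (2.34 to 4.16) and Adarb1 at 2.75 (1.69 to 3.20). From Rbm47 to Adarb1 each gene overlapped its neighbour in this order. Apobec2 was last, at 0.0645 CPM per kb (0.0389 to 0.193), below the lowest Adarb1 library.

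Apobec3 (ENSMUSG00000009585, plus strand of chromosome 15, 79891659 to 79915906) was highest in the adjacent liver of mA3 mice. It held 2.71 and 9.96 CPM in vector adjacent 1 and 9, 7.85 and 15.2 CPM in vector tumour 1 and 9, 45.0 and 35.1 CPM in mA3 adjacent 1 and 2, and 10.6 and 15.3 CPM in mA3 tumour 1 and 2. Both mA3 adjacent libraries were above all 6 others, while the mA3 tumours overlapped the vector tumours. Counts per gene do not separate a plasmid transcript from the chromosomal one. The log2 difference between plasmids was 2.67 ± 0.62 in adjacent liver (SE, a 6.38-fold ratio, 95% interval 1.26 to 4.09, edgeR adjusted p = 1). Leaving out vector adjacent 1 gave 2.01, and leaving out vector adjacent 9 gave 3.88. In tumour it was 0.17 ± 0.58 (95% interval -1.16 to 1.50, adjusted p = 0.909). The Apobec3 groups did not overlap in adjacent liver, as for 20.3% of all genes.

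Within mice, Apobec3 was higher in the tumour than in the adjacent liver of both vector mice, by 1.50 and 0.60 on the log2 CPM scale, and lower in both mA3 mice, at -2.08 and -1.19. The fitted difference was 0.88 ± 0.59 in vector mice (edgeR adjusted p = 0.616) and -1.63 ± 0.59 in mA3 mice (adjusted p = 0.175). The value in vector mice moved to 0.21 when their adjacent library 1 was left out, to 2.08 when adjacent library 9 was, and to 0.32 when tumour library 9 was. The test of the difference between these, the interaction, gave -2.51 ± 0.83 (95% interval -4.42 to -0.59, adjusted p = 0.842). Apobec3 itself passed the filter on low counts, yet 3 calls of Apobec3 depended on whether that filter was used. With no filter on low counts edgeR called 56 genes between plasmids in adjacent liver, and Apobec3 was 1 of them (log2 difference 2.71, adjusted p = 1.35e-06). Under the same setting Apobec3 was called in mA3 mice (-1.63, adjusted p = 0.00211) and for the interaction (-2.52, adjusted p = 0.00325). Calls over all genes also rose there with no filter, from 178 to 2063 in mA3 mice and from 0 to 316 for the interaction. Under DESeq2 the adjusted p in adjacent liver was 0.257.

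Apobec3 is also transcribed in leukocytes, and 2 of 4 leukocyte marker sums were, like Apobec3, highest in the mA3 adjacent libraries. The summed level of 8 markers of macrophages and Kupffer cells, the resident macrophages of liver, was 172 and 341 CPM in vector adjacent 1 and 9, 89.8 and 186 CPM in vector tumour 1 and 9, 407 and 456 CPM in mA3 adjacent 1 and 2, and 169.9 and 138 CPM in mA3 tumour 1 and 2. Of these markers 8 of 8 were above 0 between plasmids in adjacent liver (median log2 difference 0.85, 0 called), where 48.2% of all genes were above 0 and their median was -0.01. None of the 8 was above 0 for tumour against adjacent liver over both plasmids (median -1.33), and 2 were called, where 4.64% of all genes were. Both called genes, Clec4f (-1.66 ± 0.32, edgeR adjusted p = 0.0334) and Timd4 (-2.47 ± 0.50, adjusted p = 0.0385), fell. Markers of T and NK cells summed to 5.22 and 6.35 CPM in vector adjacent liver and 8.76 and 7.55 CPM in mA3 adjacent liver, against 4.59 to 6.71 CPM in the 4 tumours. Of their 6 tested markers 6 were above 0 between plasmids in adjacent liver (median 0.40, 0 called). So were 5 of 6 markers of B and plasma cells (median 1.01, 0 called) and 4 of 4 of neutrophils and monocytes (median 0.36, 0 called), and with edgeR 1 of all these leukocyte markers, for B and plasma cells, had an unadjusted p under 0.05. The sum of the B and plasma cell markers was highest in tumours, at 64.4 CPM in mA3 tumour 2 and 40.8 CPM in vector tumour 1. It was 14.5 and 29.4 CPM in mA3 adjacent 1 and 2, and 18.3 and 13.2 CPM in vector adjacent 1 and 9. Most of those tumour sums was 1 gene, Jchain, at 52.4 and 27.2 CPM. Jchain held 4.01 and 14.5 CPM in mA3 adjacent 1 and 2, and 12.4 and 7.53 CPM in vector adjacent 1 and 9. The sum of the neutrophil and monocyte markers was highest in vector tumour 9 (12.1 CPM). It was 11.6 and 7.76 CPM in mA3 adjacent 1 and 2, and 4.21 and 11.3 CPM in vector adjacent 1 and 9. Ncr1 was at 0 in 2 libraries. In vector mice Apobec3 was higher in tumour and the macrophage sum was lower, with no gene called there by edgeR. Bulk counts do not give the Apobec3 level of a cell type, and the part of these cells in the Apobec3 values was not tested.

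**Figure D2:**
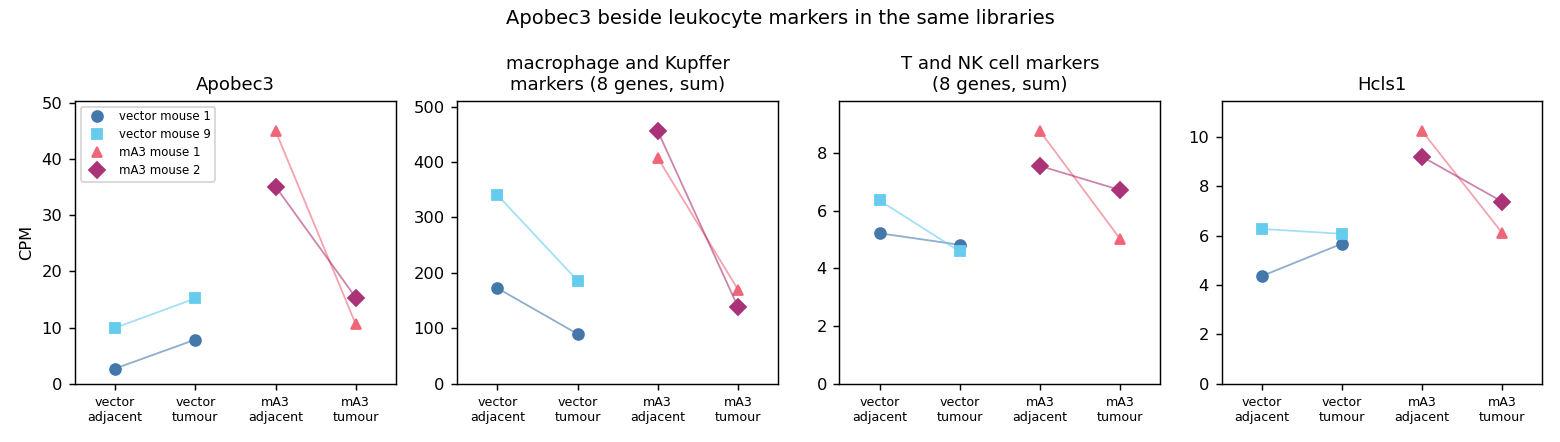
Apobec3, the summed macrophage and Kupffer cell markers, the summed T and NK cell markers, and Hcls1, the gene whose pattern was most like that of Apobec3, in CPM on linear axes that start at 0; symbols are libraries and lines join 1 mouse. All 4 panels are highest in the 2 mA3 adjacent libraries, while in vector mice the tumour lies above the adjacent liver for Apobec3 and below it for the macrophage markers, with none of these genes called there.

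The genes most like Apobec3 were ranked by Pearson's r of log2 CPM over the 8 libraries, among 9363 tested genes with a mean of at least 5 CPM. They were Hcls1, an actin-binding adaptor of blood cells (r = 0.972), the creatine kinase gene Ckb (0.925) and the GTPase gene Gimap3 (0.900). Hcls1 ran over a narrower range than Apobec3, from 4.36 to 6.27 CPM in vector libraries, 10.2 and 9.20 CPM in mA3 adjacent liver, and 6.10 and 7.38 CPM in mA3 tumours. These r values describe 8 libraries that share 4 mice, and the top of a long ranking is high by selection. Exons of Cbx7, on the opposite strand, overlap those of Apobec3, and the sources used here do not say whether reads were counted by strand. Cbx7 held 12.4 to 20.6 CPM in 6 libraries and 2.66 and 5.88 CPM in mA3 tumour 1 and 2. In adjacent liver the order of Cbx7 was unlike that of Apobec3. In both mA3 mice Cbx7, like Apobec3, was lower in the tumour than in the adjacent liver. In vector mice Cbx7 was higher in the tumour of mouse 1 and lower in that of mouse 9, where Apobec3 was higher in both. The part of Cbx7 reads in the Apobec3 counts was not tested.

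Apobec1 (ENSMUSG00000040613, minus strand of chromosome 6, 122577792 to 122602444) differed more from mouse to mouse than between tissues or plasmids. The adjacent liver and the tumour held 13.6 and 14.3 CPM in vector mouse 1, and 24.3 and 33.0 CPM in vector mouse 9. They held 27.4 and 25.9 CPM in mA3 mouse 1, and 17.5 and 16.6 CPM in mA3 mouse 2. In both tissues vector mouse 1 was lowest and mA3 mouse 2 next, and within a mouse the tissues differed by at most 0.44 on the log2 CPM scale. Of the variance of its log2 CPM over the 8 libraries, 93.2% lay between the 4 mice and 0.983% between the tissues, where the medians over all tested genes were 35.9% and 19.9%. Each of its 6 log2 differences was smaller than its standard error, from -0.41 ± 0.69 for the interaction to 0.32 ± 0.49 for tumour against adjacent liver in vector mice (edgeR adjusted p from 0.810 to 1). Over both plasmids the 95% interval for tumour against adjacent liver was -0.68 to 0.92.

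The genes most like Apobec1 over the 8 libraries were Trim30a, of the TRIM family (r = 0.966), Oasl2, of the oligoadenylate synthetase-like family (0.924), and Ifi204, of the p200 family (0.916). Trim30a held 8.53 and 9.63 CPM in vector mouse 1, 15.8 and 19.2 CPM in vector mouse 9, 15.2 and 18.4 CPM in mA3 mouse 1, and 12.4 and 11.0 CPM in mA3 mouse 2, adjacent liver first. In Trim30a and in Apobec1 alike, vector mouse 9 and mA3 mouse 1 were above the other two mice in both tissues.

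**Figure D3:**
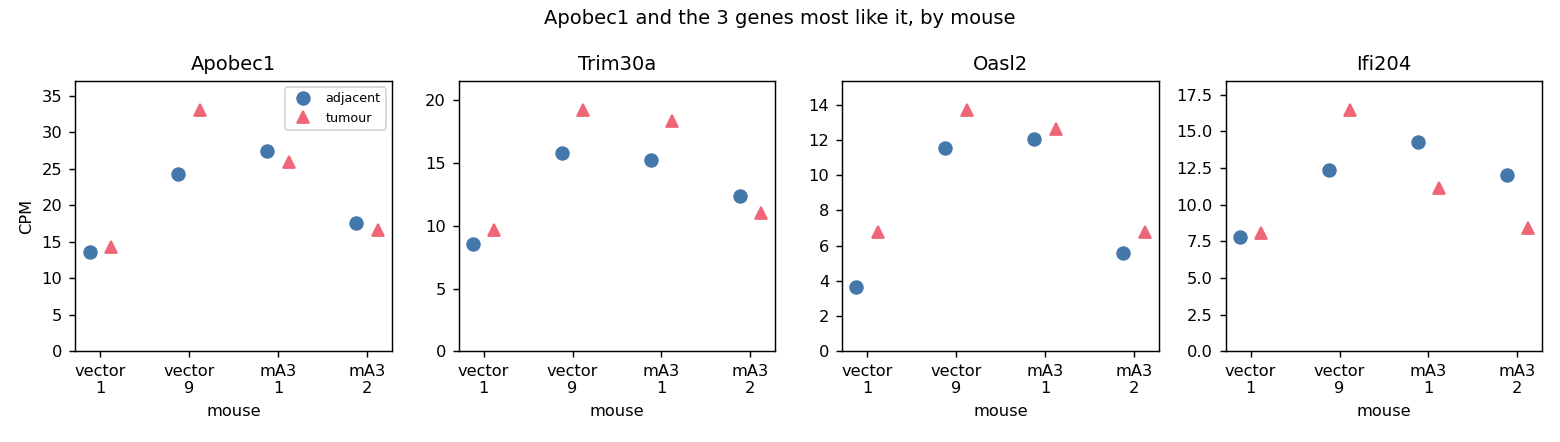
Apobec1, Trim30a, Oasl2 and Ifi204 by mouse, in CPM on linear axes that start at 0; circles are adjacent liver and triangles tumour, 1 library each. For Apobec1 the circle and the triangle of a mouse lie close to each other, with vector mouse 1 lowest (13.6 and 14.3 CPM).

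A1cf (ENSMUSG00000052595, plus strand of chromosome 19, 31868761 to 31949406), which encodes the RNA-binding cofactor first purified with Apobec1 activity, was lower in the tumour of each mouse than in its adjacent liver. It held 178 and 86.3 CPM in vector adjacent 1 and 9, 98.3 and 133 CPM in mA3 adjacent 1 and 2, 81.9 and 72.2 CPM in vector tumour 1 and 9, and 57.7 and 64.7 CPM in mA3 tumour 1 and 2. The highest tumour, 81.9 CPM, was below the lowest adjacent library, 86.3 CPM, and 12.1% of all genes likewise did not overlap. Per mouse the log2 differences were -1.12 and -0.26 in vector mice 1 and 9, and -0.77 and -1.04 in mA3 mice 1 and 2. Over both plasmids the fitted difference was -0.85 ± 0.28 (SE, n = 4 libraries per tissue, 95% interval -1.49 to -0.21), which edgeR did not call (adjusted p = 0.121) and DESeq2 did (-0.87, adjusted p = 0.0415). It was -0.55 without vector adjacent 1. The mA3 and vector tumours did not overlap either, as for 55.2% of all genes, with a log2 difference of -0.33 ± 0.39 (edgeR adjusted p = 0.708). Macrophage markers were lower in the same tumours, as given above. Hepatocyte markers were split over both plasmids: 6 of 8 were above 0 (median 0.34, 1 called), and Cps1 (-1.26) and Tat (-0.74) were below it. Of all genes 50.5% were above 0 there and 4.64% were called. The part of cell content in the A1cf values was not tested.

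Rbm47 (ENSMUSG00000070780, minus strand of chromosome 5, 66016549 to 66173118) encodes the second RNA-binding cofactor of Apobec1. It held 63.3 and 73.1 CPM in vector adjacent 1 and 9, 73.8 and 35.9 CPM in vector tumour 1 and 9, 77.2 and 52.6 CPM in mA3 adjacent 1 and 2, and 48.0 and 48.9 CPM in mA3 tumour 1 and 2. It was lower in the tumour of 3 mice and higher in that of vector mouse 1. The fitted difference over both plasmids was -0.37 ± 0.27 (edgeR adjusted p = 0.472). Omitting the tumour of vector mouse 1 gave -0.68, omitting that of vector mouse 9 gave -0.16, and omitting the adjacent liver of mA3 mouse 1 gave -0.22. Most like A1cf were Eif1b (r = 0.994), Ireb2 (0.992) and Ak3 (0.992), and most like Rbm47 were Flii (0.992), Pa2g4 (0.990) and Ppil2 (0.951). Gm43323 and Gm26725, whose exons overlap those of Rbm47, were at 0.436 CPM or less.

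Of 7 other genes reported as cofactors or regulators of C-to-U editing, 6 were tested. For tumour against adjacent liver over both plasmids 2 of the 6 fell and none rose, where 4.64% of all genes were called. The median log2 difference of the 6 was -0.10, against 0.01 over all genes. Celf2, an RNA-binding protein gene, held 12.9, 26.4, 15.4 and 15.2 CPM in the adjacent livers of vector mice 1 and 9 and mA3 mice 1 and 2, and 11.1, 6.35, 3.05 and 4.31 CPM in their tumours. It fell by 1.61 ± 0.32 on the log2 scale (edgeR adjusted p = 0.0362). Bag4, a co-chaperone gene, held 26.7, 16.7, 15.1 and 24.6 CPM in those adjacent livers and 12.2, 7.79, 6.20 and 7.13 CPM in the tumours. Bag4 fell by 1.35 ± 0.28 (adjusted p = 0.0406), and for both genes the tissues did not overlap, as for 12.1% of all genes. Of 16 other deaminase genes 11 were tested, 1 fell and none rose (median -0.18). The one that fell was Gda, the guanine deaminase gene, from 24.3 to 48.2 CPM in adjacent liver to 13.8 to 17.9 CPM in tumours (-1.15 ± 0.23, adjusted p = 0.0385). In the other 5 comparisons edgeR called 0 members of both lists. There 2 cofactors in vector mice, 3 in mA3 mice, 2 between plasmids in tumour and 1 for the interaction had an unadjusted p under 0.05, as did 1 of the 11 deaminases in vector mice and 4 in mA3 mice. Over all genes that share was 9.31% in vector mice, 20% in mA3 mice, 14.2% between plasmids in tumour and 4.99% for the interaction. DESeq2 called 3 cofactors and 1 deaminase in mA3 mice and 1 cofactor between plasmids in tumour. Of all 15009 genes it called 1607 in mA3 mice and 508 between plasmids in tumour.

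**Figure D4:**
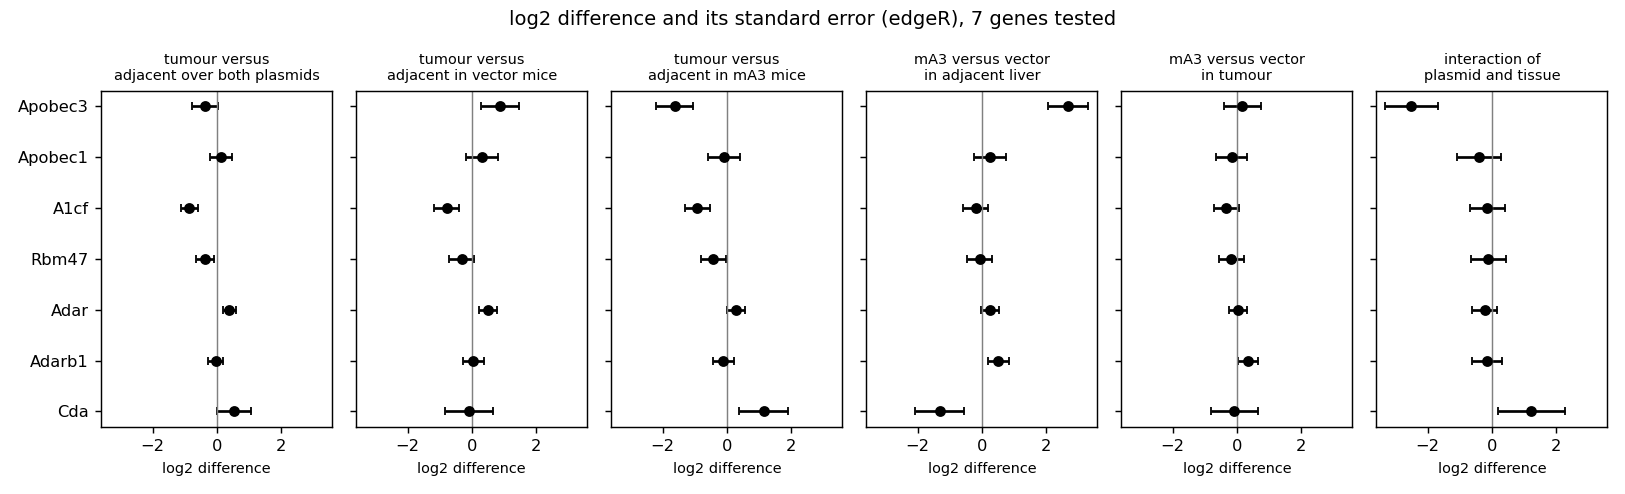
Fitted log2 difference of the 7 tested genes in the 6 comparisons, with bars of 1 standard error from edgeR; the vertical line is at 0. The interaction panel shows the tumour difference in mA3 mice minus that in vector mice, and Apobec3 lies farthest from 0 in the panels of mA3 against vector in adjacent liver (2.67) and of the interaction (-2.51), none of them called.

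Adar (ENSMUSG00000027951, plus strand of chromosome 3, 89715022 to 89753446) had the smallest ratio of its highest to its lowest library. It held 13.7 and 17.6 CPM in vector adjacent 1 and 9, 24.4 and 20.2 CPM in vector tumour 1 and 9, 20.3 and 17.2 CPM in mA3 adjacent 1 and 2, and 21.9 and 23.8 CPM in mA3 tumour 1 and 2. It was higher in the tumour of each of the 4 mice, by 0.82, 0.19, 0.11 and 0.47 on the log2 CPM scale. The tissues overlapped slightly. How many of all genes went in 1 direction in all 4 mice was not counted, here or for A1cf. Within vector mice Adar and A1cf were the genes of the 7 whose tissues did not overlap, where 34.8% of all genes did not. The fitted difference over both plasmids was 0.40 ± 0.20 (95% interval -0.06 to 0.85, edgeR adjusted p = 0.279). Between tissues lay 60.2% of its variance and 9.75% between mice. Chrnb2, whose exons overlap those of Adar on the opposite strand, was at 1.03 to 4.64 CPM.

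Adarb1 (ENSMUSG00000020262, minus strand of chromosome 10, 77290726 to 77418270) encodes the second catalytic deaminase of adenosine in RNA, known from the glutamate receptor message in brain. It held 15.9 and 13.6 CPM in vector adjacent 1 and 9, 19.2 and 11.3 CPM in vector tumour 1 and 9, 21.0 CPM in each mA3 adjacent library, and 17.4 and 21.3 CPM in mA3 tumour 1 and 2. Vector mouse 9 was lowest in both tissues. Of its variance 85.9% lay between mice and 1.04% between tissues. The log2 difference for tumour against adjacent liver over both plasmids was -0.04 ± 0.23 (95% interval -0.57 to 0.49, edgeR adjusted p = 0.950), and between plasmids in adjacent liver it was 0.50 ± 0.33 (adjusted p = 1). Most like Adar were Ints1 (r = 0.955), Fyn (0.952) and Pip5k1c (0.950), and most like Adarb1 were Ppapdc2 (0.911), Dock5 (0.890) and Ciart (0.890).

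In 3 lists around the adenosine deaminases edgeR called 1 gene for tumour against adjacent liver over both plasmids, where 4.64% of all genes were called. Of 11 tested regulators of ADAR editing 0 were called by edgeR for tumour against adjacent liver over both plasmids (median 0.14), 0 at an unadjusted p under 0.05 and 0 by DESeq2. In mA3 mice 11 of 11 were above 0 (median 0.42, 0 called by edgeR or DESeq2, 3 at an unadjusted p under 0.05), where 49.8% of all genes were above 0 and 20% had such a p. In vector mice 5 of 11 were above 0 (median -0.05). For the interaction 11 of 11 were above 0 (median 0.65, 0 called, 1 at an unadjusted p under 0.05), where 47.8% of all genes were. Of 11 genes with known edited transcripts 10 were tested and 1 rose. This was Flna, the gene of the actin crosslinker filamin A, at 17.6 to 40.0 CPM in adjacent liver and 39.8 to 65.4 CPM in tumours (1.05 ± 0.22, edgeR adjusted p = 0.0431), with a slight overlap. Of 13 sensors of double-stranded RNA 0 were called by edgeR (median 0.24, 3 at an unadjusted p under 0.05) and 1 by DESeq2. Over all genes 22.4% had such a p and DESeq2 called 1940 of 15009. The smallest p was that of Oas1a, an oligoadenylate synthetase gene, at 2.91 to 9.11 CPM in adjacent liver and 5.85 to 18.8 CPM in tumours (1.28 ± 0.33, adjusted p = 0.0702).

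Of 16 interferon-stimulated genes edgeR called 0 for tumour against adjacent liver over both plasmids (median 0.10). An unadjusted p under 0.05 was found for 2, and DESeq2 called 1. Over all genes 22.4% had such a p and DESeq2 called 1940 of 15009. Between plasmids in adjacent liver 13 of 16 were above 0 (median 0.36), with 0 called by edgeR or DESeq2 and 2 at an unadjusted p under 0.05. Of all genes 48.2% were above 0 there (median -0.01) and 1.03% had such a p. Isg15, the ubiquitin-like modifier gene, held 8.98 and 3.84 CPM in the vector and 15.8 and 13.8 CPM in the mA3 adjacent libraries (1.20 ± 0.45, edgeR adjusted p = 1). Its level was higher in each mA3 adjacent library than in either vector one, and 20.3% of all genes likewise did not overlap there. The macrophage sums given above differed in the same direction between these libraries, and their part was not tested.

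Cda (ENSMUSG00000028755, minus strand of chromosome 4, 138338424 to 138367992) had its highest levels in both tissues of 1 vector mouse. It held 3.56 and 14.8 CPM in vector adjacent 1 and 9, 4.13 and 13.1 CPM in vector tumour 1 and 9, 4.62 and 2.68 CPM in mA3 adjacent 1 and 2, and 9.64 and 6.63 CPM in mA3 tumour 1 and 2. In mA3 mice the tumour was higher in both, by 1.05 and 1.28 on the log2 CPM scale, and the groups did not overlap, as for 58% of all genes. The fitted difference there was 1.15 ± 0.75 (edgeR adjusted p = 0.461). Between mice lay 75% of its variance. Between plasmids the log2 difference was -1.31 ± 0.76 in adjacent liver (adjusted p = 1) and 0.04 there without vector adjacent 9. Most like Cda were Pigl (r = 0.973), Rbpms (0.966) and Eps8l2 (0.962).

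Around Cda, 31 genes of pyrimidine salvage, synthesis and breakdown were listed and 29 tested. For tumour against adjacent liver over both plasmids 3 fell and none rose (median -0.18), where 4.64% of all genes were called and their median was 0.01. An unadjusted p under 0.05 was found for 7 of the 29 over both plasmids and 9 in mA3 mice. Over all genes those shares were 22.4% and 20%. Dpyd, the first enzyme of uracil and thymine breakdown, held 371, 344, 258 and 299 CPM in the adjacent livers of vector mice 1 and 9 and mA3 mice 1 and 2, and 181, 82.2, 29.3 and 57.5 CPM in their tumours. It fell by 2.06 ± 0.35 (edgeR adjusted p = 0.0247). Dpys, the next enzyme of that pathway, held 206 to 263 CPM in adjacent liver and 148 CPM or less in tumours, with 26.3 CPM in mA3 tumour 2. Dpys fell by 1.88 ± 0.29 (adjusted p = 0.0203). Uck1, a uridine-cytidine kinase gene, held 44.6 to 52.8 CPM in adjacent liver and 17.8 to 33.8 CPM in tumours, and fell by 1.07 ± 0.23 (adjusted p = 0.0434). None of the 3 overlapped between tissues, as for 12.1% of all genes. In mA3 mice alone Dpys fell by 2.59 ± 0.42 (adjusted p = 0.0417), the only member called there by edgeR. In the other 4 comparisons edgeR called 0 of the list. Between plasmids in tumour DESeq2 called 2 of the list, both lower in mA3 mice, and 508 of all 15009 genes. There 4 of 29 had an unadjusted p under 0.05, as did 3 in vector mice and 2 for the interaction, beside 14.2%, 9.31% and 4.99% of all genes.

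The calls of Gda, Celf2, Bag4, Flna, Dpys, Dpyd and Uck1 were lost when any one mA3 library was left out. Calls over all genes also dropped there, and such a fit leaves 1 library in a group. With any 1 of the 8 libraries left out, the log2 differences over both plasmids kept their directions. They ran from -1.28 to -0.99 (Gda), -1.84 to -1.32 (Celf2), -1.53 to -1.16 (Bag4) and 0.88 to 1.27 (Flna). For the pyrimidine genes they ran from -2.11 to -1.71 (Dpys), -2.40 to -1.84 (Dpyd) and -1.28 to -0.91 (Uck1). With the mouse as a block Bag4, Dpys and Dpyd passed (edgeR adjusted p = 0.0283, 0.0208 and 0.0179), while Celf2, Gda, Flna and Uck1 did not (0.0538, 0.0606, 0.0614 and 0.0626). With limma-voom Bag4 did not pass (adjusted p = 0.0516). With limma on log2 FPKM plus 0.5, Celf2, Gda, Bag4, Flna and Uck1 did not pass (adjusted p = 0.118, 0.0531, 0.0536, 0.0588 and 0.0506), and with 0.1 added Uck1 passed (0.0493) and the other 4 did not (0.102, 0.0507, 0.0505 and 0.0555). On those scales the Celf2 difference was -0.38 and -0.93, where the added constant understates the change of low genes.

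Apobec2 (ENSMUSG00000040694, minus strand of chromosome 17, 48419231 to 48432728), a gene of skeletal and heart muscle, was at the edge of detection. It had 18 counts in all, 1 to 4 in each library, or 0.0552 to 0.275 CPM, where 3 counts correspond to 0.124 to 0.235 CPM. It did not pass the filter and was not tested. Markers of skeletal muscle were also near 0, with Ckm and Myh4 at 0 in 8 of 8 libraries and the 5 genes summing to 1.22 CPM at most.

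The deposited FPKM values (fragments per kilobase, scaled to library size) order these genes otherwise, because they divide by another gene length. In 7548 genes that had 100 counts or more throughout, the length that the FPKM values divide by was within 1% of the sum of all distinct annotated exons, overlapping ones counted repeatedly, in 67.2%, and within 1% of the merged exons in 6.52%. For Rbm47 that length was 17568 bases against a longest coding transcript of 5211, and for Adarb1 23897 against 6662, both equal to the sum of distinct exons. Apobec3, A1cf and Apobec2 were not among the genes that this sum matched. For Apobec3 the length was 13565 bases, while its distinct exons sum to 18277, its merged exons span 9454 and its transcript 1953. For A1cf it was 3828 bases, with 6088 for the distinct exons, 3771 for the merged exons and 3414 for the transcript. By median FPKM Cda (3.77) was above Rbm47 (3.16) and Apobec1 (3.07), and by CPM per kb of transcript below both. Apobec3 was below Adar by median FPKM (0.963 against 2.09) and above it per kb of transcript. A length is the same in every library, so that it moves the order of genes and not the differences between libraries.

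**Figure D5:**
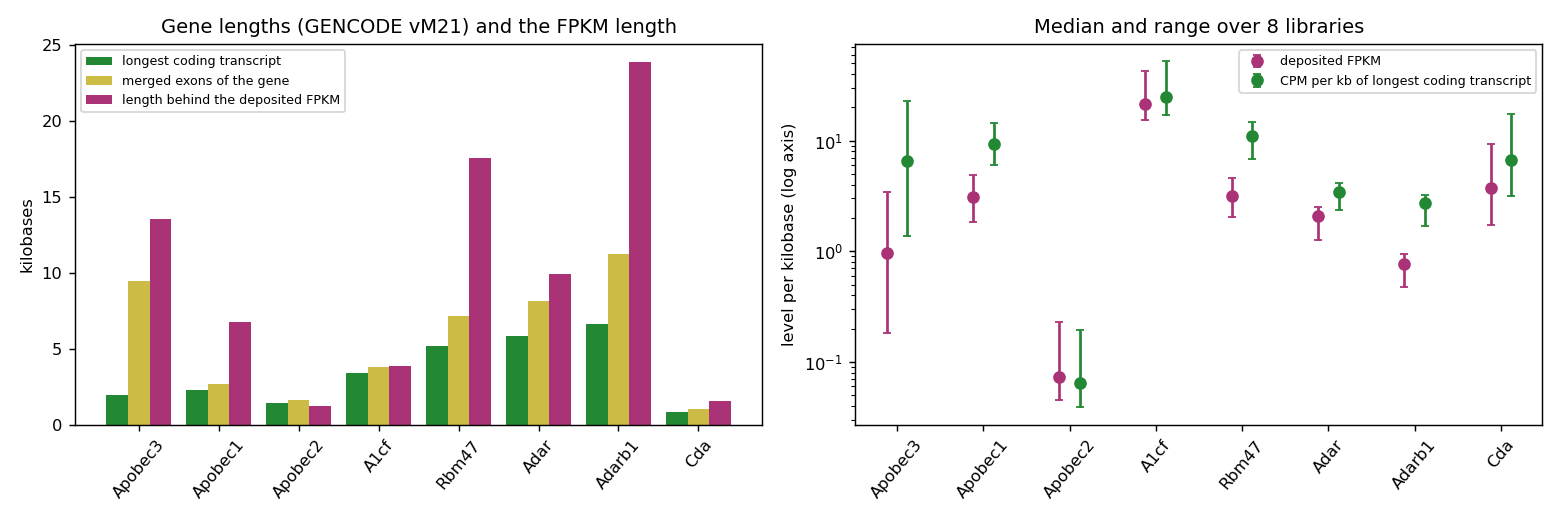
Left, for each of the 8 genes, 3 lengths in kilobases as bars from 0: the longest coding transcript, the merged exons, and the length behind the deposited FPKM. Right, median and range over the 8 libraries of FPKM and of CPM per kb of the longest coding transcript, on a log axis; Apobec3, Rbm47 and Adarb1 have the largest gaps between the lengths, and A1cf is highest by both measures.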

How the data were processed

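Liver RNA of 8 libraries had been sequenced with standard Illumina libraries, per the labels' protocols. The authors deposited 1 table with a read count and an FPKM value per gene and library, per the file headers. The sources used here do not give aligner, counting tool, annotation release or strand setting. The submitters' processing notes name Agilent Feature Extraction 10.7, a program for microarrays, and build mm8, while 81.6% of the 34267 gene identifiers found in GENCODE vM21 (GRCm38) had its positions within 1 base. Coordinates are those of the deposited table, with that build.

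Deposited counts were tested with edgeR 4.0.16 under R 4.3.3: filterByExpr by group (15009 genes), TMM factors, 1 coefficient per group in a quasi-likelihood fit to all 8 libraries, 4 residual degrees of freedom, and Benjamini-Hochberg adjustment over all genes at 0.05. Standard errors and 95% intervals were derived from the F statistic. The biological coefficient of variation was 39.1%. CPM were scaled with TMM factors, and the prior count for log2 CPM was 2. Alternatives were DESeq2 1.42.0, limma-voom and limma 3.58.1 on log2 of the deposited FPKM plus 0.5 or 0.1, other scaling factors, no filter, the mouse as a block, and leaving out each library. The fit was tested on simulated data. The 95% intervals include the spread between libraries, and the floors of 3 counts cover counting error only.

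The 8 genes were chosen by symbol, and they and the gene lists were chosen with earlier results of these data known. From each list up to 4 genes with the smallest p could be named, and for each gene the 3 with the highest r. Libraries sharing a plasmid and a title number were taken as 1 mouse, and the deviations of such pairs from their group means had a correlation over genes of 0.107 for the vector and 0.175 for the mA3 mice.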

Additional observations from a re-analysis of the deposited data

Results flagged for a closer look

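For Apobec3 the tumour was above the adjacent liver in each vector mouse (1.50 and 0.60 on the log2 CPM scale) and below it in each mA3 mouse (-2.08 and -1.19). The interaction in edgeR was -2.51 ± 0.83 with an adjusted p of 0.842, so the difference did not pass, and it ran from -3.71 to -1.83 with 1 library left out at a time. For Apobec1 the 2 vector mice were likewise above 0 (0.07 and 0.44) and both mA3 mice below it (-0.08 in each), with an interaction of -0.41 ± 0.69 (adjusted p = 0.926). These Apobec1 values were small beside the differences between mice. The share of all genes with such opposite signs by plasmid was not counted. On the CPM scale Cda in vector adjacent 9 (14.8 CPM) stood apart from the other 3 adjacent libraries (2.68 to 4.62 CPM), its gap to the nearest being 0.84 of the range, above Dixon's 95% critical value for 4 samples. On the log2 CPM scale the same gap was 0.685 of the range, and no library stood apart in any of the 7 tested genes. With 14 groups of 4, chance flags about 1 group in 20.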

How the results depend on the processing

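The counts of called genes depended most on the settings. For tumour against adjacent liver over both plasmids 696 genes were called by edgeR, 1940 by DESeq2, 458 by limma-voom and 2450 with no filter, and 0 to 1622 with 1 library left out. In vector mice the count of 0 became 230 by DESeq2, 674 with no filter and 0 to 142 with 1 library left out. In mA3 mice 178 became 1607 by DESeq2, 111 by limma-voom, 388 and 349 by limma on log2 FPKM (pseudocounts 0.5 and 0.1), 2063 with no filter, 560 with the mouse as a replicate block and 0 to 1090 with 1 library left out. Between plasmids 0 became 56 in adjacent liver with no filter, and in tumour 508 by DESeq2, 1084 with no filter and 0 to 270 with 1 library left out. The interaction gave 12 by DESeq2 and 316 with no filter. Of the 7 genes, 1 (A1cf) was called by DESeq2 over both plasmids, and 1 (Apobec3) with no filter in mA3 mice, between plasmids in adjacent liver and for the interaction. The other settings and left-out libraries called 0, and the block changed no call of these 7.

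Signs turned in uncalled log2 differences near 0, and the cause was not tested. For tumour against adjacent liver in vector mice, Adarb1 (0.04) was -0.0158 by limma-voom and -0.001 with the block, and Cda (-0.08) was 0.15 by limma-voom, 0.0575 and 0.0756 on log2 FPKM and 0.0098 with the block. Between plasmids in adjacent liver, on log2 FPKM, A1cf (-0.19) was 0.0075 and 0.0084 and Rbm47 (-0.07) 0.027 and 0.028. In tumour Apobec1 (-0.16) was 7e-04 on log2 FPKM (0.1), and Cda (-0.08) was 0.10 by limma-voom and 0.16 and 0.19 on log2 FPKM. The interaction of Rbm47 (-0.11) was 0.0178 by limma-voom and 0.0055 with the block.

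Leaving out 1 library turned these signs. Over both plasmids the ranges were -0.71 to 0.22 (Apobec3), -0.25 to 0.36 (Apobec1), -0.26 to 0.12 (Adarb1) and -0.0031 to 1.20 (Cda). In vector mice they were -0.41 to 0.80 (Apobec1), -0.93 to 0.10 (Rbm47), -0.40 to 0.36 (Adarb1) and -1.15 to 1.26 (Cda), and in mA3 mice -0.44 to 0.30 (Apobec1) and -0.27 to 0.0248 (Adarb1). Between plasmids in adjacent liver they were -0.13 to 0.71 (Apobec1), -0.63 to 0.42 (A1cf), -0.40 to 0.17 (Rbm47) and -2.01 to 0.036 (Cda). In tumour they were -0.23 to 0.73 (Apobec3), -0.64 to 0.57 (Apobec1), -0.60 to 0.43 (Rbm47), -0.0895 to 0.18 (Adar) and -0.69 to 0.98 (Cda). For the interaction they were -0.89 to 0.33 (Apobec1), -0.75 to 0.29 (A1cf), -0.53 to 0.51 (Rbm47), -0.48 to 0.28 (Adarb1) and -0.12 to 2.30 (Cda). A left-out library leaves its group with 1, which the fit assumes to vary like the others. Among the 7 genes 295 values with a library left out and 260 under other settings kept their sign and side of the threshold, 41 and 16 turned sign, and 4 came to pass. Apobec2, with 1 to 4 counts a library, is limited by depth.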

Other observations

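Markers of the other cells of liver are given as summed levels. Those of stellate cells and fibroblasts (6 genes) ran from 154 to 260.1 CPM in adjacent liver and from 112 to 347 CPM in tumours, with vector tumour 1 at 112 CPM and the other tumours at 279 CPM or more. Those of endothelial cells (5 genes) ran from 117 to 186 CPM in adjacent liver and from 127 to 199.9 CPM in tumours, and those of bile duct cells (4 genes) from 3.36 to 9.65 CPM and from 12.8 to 28.3 CPM. With edgeR, 0 of these 15 genes were called for tumour against adjacent liver over both plasmids, and 9 had an unadjusted p under 0.05. Of all genes 22.4% had such a p. The 6 stellate cell and fibroblast genes were all among the 9 and were split: 4 were higher in tumours, while Dcn and Lrat were lower. Of the bile duct sum, Sox9 alone held 25.0, 19.7 and 20.4 CPM in vector tumour 9 and mA3 tumours 1 and 2. Its levels in adjacent liver were 1.37 to 5.73 CPM. Of the 4 bile duct genes 3 were above 0 over both plasmids and 2 in mA3 mice. Of all genes 50.5% and 49.8% were.

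In the pyrimidine list, Ctps2, a CTP synthase gene, held 7.45 to 12.6 CPM in adjacent liver, 8.37 CPM in vector tumour 1 and 27.2, 27.6 and 31.4 CPM in the other tumours (1.34 ± 0.38, edgeR adjusted p = 0.0835). Copa, whose message carries a site known to be edited by Adarb1, held 141 to 164 CPM in adjacent liver, 177 and 165 CPM in vector tumours and 289.9 and 290.0 CPM in the mA3 tumours (0.53 ± 0.21, adjusted p = 0.177).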
